A study of Bos taurus with 15 samples.

Results

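Adrenomedullin, the peptide encoded by *ADM*, and its receptor genes were followed across the transition from late gestation to mid lactation in the subcutaneous adipose tissue of dairy cows. The set held 6 genes of 13896 in the deposited tables: *ADM*, *ADM2*, *CALCRL*, *RAMP1*, *RAMP2* and *RAMP3*. A gene was taken when its symbol was listed in each of the 6 comparison tables, and all 6 were. The set was chosen by the change of *ADM* at the first week after calving in cows with a severe energy deficit, which was known from these data. For that reason, *ADM* values in the comparisons that include this group are given as a description, with no test.

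Adrenomedullin is a vasodilator peptide released by many cells, among them adipocytes and vascular endothelial cells, and it also acts on lymphatic vessels. Its receptor is the G protein-coupled receptor encoded by *CALCRL*, which reaches the cell surface only with a receptor activity-modifying protein. With *RAMP2* or *RAMP3* the complex binds adrenomedullin, whereas with *RAMP1* it binds calcitonin gene-related peptide. *ADM2* encodes intermedin, a second ligand of these complexes. The receptor couples to the stimulatory G protein and raises cyclic AMP.

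RNA was sequenced from dewlap biopsies of primiparous Holstein cows, with 15 libraries in 5 groups of 3. The -4 wkpp group (weeks peripartum, wkpp) was sampled at about 4 weeks before calving, before any experimental diet. The other groups carry a high energy or a low energy diet in their labels and were sampled at 1 or 16 wkpp. The study sorted its cows by energy balance at 1 wkpp into moderate (MNEB) and severe negative energy balance (SNEB), and here samples of the high energy diet are called MNEB and those of the low energy diet SNEB. The diets were started at -4 wkpp, the sequenced cows had the most extreme energy balance of their energy balance group at 1 wkpp, and the biopsies were taken under anaesthesia after fasting. Biopsies were repeated on the same animals over time, so libraries of different times may share cows, whereas the tests treat all 15 libraries as independent. No allele, transgene or drug treatment distinguished the groups.

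The tables give mean normalised counts over the 6 libraries of each comparison, and the whole-number reads of every library were recovered from these means. Within a group the libraries are numbered 1 to 3 by falling size factor, and they were not tied to individual cows. Exonic totals were 7129989 to 13460703 reads in the -4 wkpp and SNEB libraries. In the MNEB groups library 1 held 6651976 reads at 1 wkpp and 7048550 at 16 wkpp, and libraries 2 and 3 held 1922863 to 2741082 reads. Shallow libraries, those with few counted reads, thus occurred only in the MNEB groups. The paper's sequencing summary lists similar total reads for MNEB and other libraries. It also lists a lower aligned share and more multiply mapped reads in every MNEB library. The low counts therefore go with mapping and not with the number of reads sequenced. Counted depth, mapping and diet cannot be told apart. The sample titles also carry an unexplained tag that is constant within a group: -4 wkpp, MNEB 1 wkpp and SNEB 16 wkpp share one tag, and SNEB 1 wkpp and MNEB 16 wkpp the other. Of the 6 comparisons, 1 (-4 wkpp against MNEB 1 wkpp) lies within a tag, and in the other 5 the tag and the groups cannot be told apart. The -4 wkpp libraries enter 2 of the comparisons and each 1 wkpp group enters 3, so the comparisons are not independent of each other.

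Markers of the other cell types in the tissue also moved with the groups. The 5 adipocyte markers recovered (*PLIN1*, *CIDEC*, *PPARG*, *LPL*, *LEP*) were detected, with a summed exonic level of 39386 to 48217 normalised counts at -4 wkpp, 29270.0 to 33675 at SNEB 1 wkpp and 17486 to 24644 at SNEB 16 wkpp. In MNEB cows the sum was 9106 to 13452 at 1 wkpp and 5281 to 16431 at 16 wkpp, below every library of the other groups. The sum of 10 blood vessel endothelium markers was 22230.0 to 28215 at -4 wkpp, 39733 to 76090.1 at MNEB 1 wkpp and 34085 to 42731 at SNEB 1 wkpp. The sum of 5 lymphatic endothelium markers was 399 to 945 in the 6 MNEB libraries and 2500 to 4752 in the other 9. The sum of 6 skeletal muscle markers was 1178 to 4099 in MNEB libraries and at most 356 in the others. In bulk tissue, fewer cells of a type and less RNA per cell cannot be told apart.

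*ADM*, the ligand gene, was higher at 1 wkpp than before calving in every library of both diet groups. At -4 wkpp the 3 libraries held 1129, 1338 and 1775 exonic normalised counts. At MNEB 1 wkpp they held 10055, 7474 and 4317. At MNEB 16 wkpp they held 2071, 3335 and 1091. All 3 MNEB 1 wkpp libraries lay above every -4 wkpp and MNEB 16 wkpp library.

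At SNEB 1 wkpp the 3 libraries held 10465, 3854 and 12471 exonic normalised counts. At SNEB 16 wkpp they held 1893, 2871 and 2317. Library 2 of SNEB 1 wkpp was far below the other two, yet above every SNEB 16 wkpp and -4 wkpp library. The group means were 8930.2 ± 4509 at SNEB 1 wkpp, 7282 ± 2874 at MNEB 1 wkpp, 2360.1 ± 490.5 at SNEB 16 wkpp, 2165 ± 1125 at MNEB 16 wkpp and 1414 ± 330 at -4 wkpp (SD, n = 3 each). In this order the neighbours MNEB 1 wkpp and SNEB 16 wkpp did not overlap, whereas the other neighbouring groups did.

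**Figure D1:**
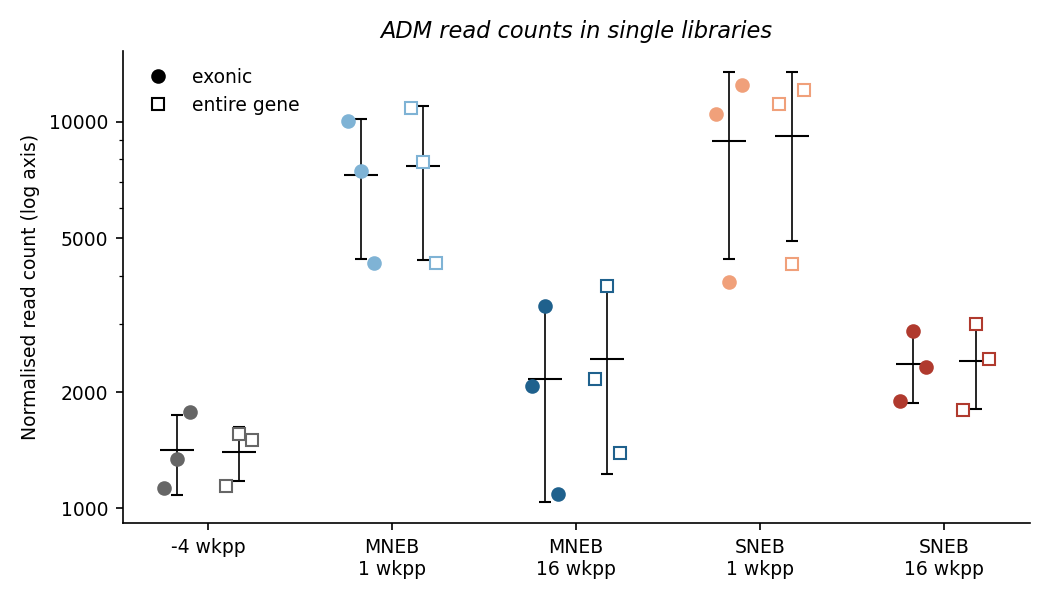
Normalised *ADM* read counts (log axis) of each library in the 5 groups, with filled circles for exonic reads, open squares for reads of the entire gene, and black bars for the mean and SD of 3 libraries. The 6 libraries at 1 wkpp lie between 3854 and 12471 exonic normalised counts and the other 9 between 1091 and 3335.

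From -4 wkpp to MNEB 1 wkpp *ADM* met the calling rule, against the same -4 wkpp libraries that are the baseline of the SNEB values by which it was chosen. The p-values of this comparison are therefore not independent of the choice. A gene was called when its Benjamini-Hochberg adjusted p was below 0.01 in both the exonic and the entire gene fits of limma with voom weights, with the same sign. The exonic log2 difference was 2.27 (SE 0.43, limma adjusted p = 0.000851) and that of the entire gene was 2.36 (SE 0.43, limma adjusted p = 0.002). On the means this was a 5.15-fold higher exonic level. *ADM* was the 1 member called of 5 tested, in a comparison in which 10.4% of 10317 genes were called.

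The call was lost when -4 wkpp library 1 was left out, with an entire gene limma adjusted p of 0.0135 and an exonic log2 difference of 2.12, and when only the 6 libraries of the comparison were fitted, with 0.0129. Without the 4 shallow MNEB libraries, an alternative chosen after the data were seen that leaves 1 library at MNEB 1 wkpp, the difference was 2.88 with limma adjusted p = 0.00572 in exons and 0.0106 in entire genes. Of the 10 blood vessel endothelium markers, 3 (*VWF*, *TIE1* and *ROBO4*) were called higher in the same comparison and 8 had a positive exonic log2 difference, with a median of 0.68 against -0.04 over all genes, and 3 of the 4 adipocyte markers tested were called lower. Their part in the *ADM* difference was not tested.

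From MNEB 1 wkpp to MNEB 16 wkpp, *ADM* was 3.36-fold lower on the exonic means, with a log2 difference of -1.78 (SE 0.43). The groups did not overlap, but the difference missed the threshold, with limma adjusted p = 0.0816 in exons and 0.164 in entire genes. No gene passed in this comparison (0% of 10317), while 1574 had an unadjusted exonic p under 0.05 in limma, *ADM* among them, which was 15.3% of all genes, and 13.6% had one in entire genes. No member of 5 was called, while 1 had an unadjusted p under 0.05 in limma in exons and 3 (*ADM*, *RAMP1* and *RAMP3*) in entire genes. Of the 10 blood vessel endothelium markers, 1 had a positive exonic log2 difference, with a median of -0.48 against -0.01 over all genes. None was called by limma, and 5 had an unadjusted exonic p under 0.05. Their part in the *ADM* difference was not tested.

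In SNEB cows, the described exonic log2 difference of *ADM* was 2.51 (SE 0.45) from -4 wkpp to SNEB 1 wkpp and -1.77 (SE 0.46) from SNEB 1 wkpp to SNEB 16 wkpp. On the means, the level was 6.32-fold higher at 1 wkpp than before calving and 3.78-fold lower at 16 than at 1 wkpp. Of the 10 blood vessel endothelium markers, 10 had a positive exonic log2 difference in the first comparison (median 0.59) and 1 in the second (median -0.50). None was called in either by limma, with 5 and 3 at an unadjusted exonic p under 0.05, and their part in the *ADM* values was not tested. Between diets, *ADM* differed by less than the spread of the libraries at either time. The described exonic log2 difference, SNEB minus MNEB, was 0.24 (SE 0.46) at 1 wkpp. At 16 wkpp it was 0.25 (SE 0.43), with a 95% interval from -0.67 to 1.17 and limma adjusted p = 0.72. The change from 1 to 16 wkpp differed between SNEB and MNEB by 0.01 (SE 0.63) on the log2 scale, as a description. The sign at 1 wkpp changed when single libraries were left out, with -0.11 without MNEB 1 wkpp library 3 and -0.09 without SNEB 1 wkpp library 3. It was -0.37 without the 4 shallow libraries, which leaves 1 library at MNEB 1 wkpp. The difference at 16 wkpp also changed sign, running from -0.19 to 0.63 when single libraries were left out.

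*ADM2*, which encodes the second ligand, was near the limit of detection. It had 4 exonic reads in the 15 libraries together: 1 in -4 wkpp library 2, 2 in SNEB 1 wkpp library 2 and 1 in SNEB 16 wkpp library 2. In the other 12 libraries it was at 0, and the reads of the entire gene were the same 4. It did not pass the filter of a mean of 10 normalised counts and was not tested, so a difference was not detectable at this depth.

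*CALCRL*, the shared receptor, was highest before calving in exonic reads. The 3 libraries held 1215, 1053 and 1734 exonic normalised counts at -4 wkpp. They held 1008, 412 and 332 at MNEB 1 wkpp. At MNEB 16 wkpp they held 963, 485 and 617. At MNEB 1 wkpp all 3 lay below the lowest -4 wkpp library, by a small margin for library 1.

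In SNEB cows *CALCRL* held 667, 685 and 1157 exonic normalised counts at 1 wkpp. At SNEB 16 wkpp the libraries held 1051, 788 and 795. Both groups overlapped each other and the MNEB groups. The means were 1334 ± 356 at -4 wkpp, 878 ± 150 at SNEB 16 wkpp, 836 ± 278 at SNEB 1 wkpp, 689 ± 247 at MNEB 16 wkpp and 584 ± 369 at MNEB 1 wkpp (SD, n = 3 each), and each neighbouring pair of groups in this order overlapped except -4 wkpp and SNEB 16 wkpp, whose nearest libraries held 1053 and 1051.

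No comparison of *CALCRL* passed the test. From -4 wkpp to MNEB 1 wkpp the exonic log2 difference was -1.19 (SE 0.38, limma adjusted p = 0.0214), and that of the entire gene was -0.39 (SE 0.32, limma adjusted p = 0.444). Leaving out the shallow libraries gave an exonic difference of -0.35, whereas leaving out MNEB 1 wkpp library 1 gave -1.80, with limma adjusted p = 0.00243 in exons and 0.0304 in entire genes. The exonic difference from -4 wkpp to SNEB 1 wkpp was -0.69 (SE 0.35, limma adjusted p = 0.363). Between diets it was 0.49 (SE 0.37) at 1 wkpp and 0.35 (SE 0.36) at 16 wkpp, with limma adjusted p of 0.352 and 0.522. With single libraries left out, the 1 wkpp difference ran from 0.22 to 1.11, with exonic limma adjusted p between 0.0442 and 0.737. Over all alternatives its lowest value was -0.35.

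*RAMP2*, the partner that forms the adrenomedullin 1 receptor with *CALCRL*, was higher in SNEB than in MNEB cows at 16 wkpp in every library. At SNEB 16 wkpp the libraries held 1762, 1409 and 1041 exonic normalised counts. At MNEB 16 wkpp they held 521, 570.4 and 544. The groups did not overlap, and the exonic mean was 2.58-fold higher in SNEB cows. The exonic log2 difference was 1.33 (SE 0.33, 95% interval 0.64 to 2.03, limma adjusted p = 0.00957), and that of the entire gene was 1.14 (SE 0.38, limma adjusted p = 0.0758). *RAMP2* therefore passed in exonic reads alone and was not called by the rule for both. The exonic pass was lost whenever 1 of the 6 libraries was left out, with limma adjusted p of 0.0108 to 0.0432.

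At the earlier times *RAMP2* groups overlapped. The libraries held 880.4, 1218 and 787 exonic normalised counts at -4 wkpp. They held 1289, 488 and 576 at MNEB 1 wkpp and 1644, 1376 and 963 at SNEB 1 wkpp. At MNEB 1 wkpp, library 1 was far above the shallow libraries 2 and 3. Between diets at 1 wkpp the exonic log2 difference was 0.77 (SE 0.32, limma adjusted p = 0.0931), and it was -0.03 without the shallow libraries. Without MNEB 1 wkpp library 1 it was 1.29, with limma adjusted p = 0.00582 in exons and 0.0216 in entire genes, so that its size rests on which MNEB libraries are kept.

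*RAMP3*, which forms the adrenomedullin 2 receptor, differed between its exonic and entire gene reads. At MNEB 16 wkpp the libraries held 658, 408 and 867 entire gene normalised counts. At SNEB 16 wkpp they held 264, 229.6 and 123. Every MNEB library was above every SNEB library, with a 3.13-fold difference of the means. The entire gene log2 difference, SNEB minus MNEB, was -1.63 (SE 0.37, limma adjusted p = 0.0121), just short of the threshold.

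In exonic reads the same *RAMP3* comparison gave 214, 54.2 and 215 normalised counts at MNEB 16 wkpp. At SNEB 16 wkpp the libraries held 155.5, 103 and 74.5. The groups overlapped, and the log2 difference was -0.50 (SE 0.50, limma adjusted p = 0.499). It was 0.00011 without MNEB 16 wkpp library 1 and -0.996 without MNEB 16 wkpp library 2. The 54.2 of MNEB 16 wkpp library 2 rests on 21 reads.

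Markers of other cell types differed between the diets at 16 wkpp beside *RAMP2* and *RAMP3*. The summed exonic level of 5 macrophage markers was 1978 to 2279 normalised counts in MNEB and 10498 to 13771 in SNEB cows, with a median log2 difference of 2.78 and 2 (*CD163* and *CSF1R*) called higher. That of 7 smooth muscle and pericyte markers was 29311.5 to 75164.5 in MNEB and 11235 to 24307.6 in SNEB cows, with a median of -1.67 and 1 (*CSPG4*) called lower. Of the 5 lymphatic endothelium markers 2 were called higher in SNEB cows, with sums of 399 to 865 in MNEB and 3082.5 to 4652.5 in SNEB cows. Of the 10 blood vessel endothelium markers 2 (*TIE1* and *ROBO4*) were called lower, although the median was 0.09, with sums of 29629.7 to 42731 and 26236 to 29626. Of the 4 adipocyte markers tested, *CIDEC* was called higher in SNEB cows (exonic log2 difference 1.65, limma adjusted p = 0.00128), and the list median was 1.32, with -2.25 for *LEP*. Without the shallow libraries, *CD163* was the 1 gene of these lists still called, and 16 of all genes were called. With all libraries, 4.62% of all genes were called in this comparison. The part of these markers in the *RAMP2* and *RAMP3* differences was not tested.

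*RAMP3* in MNEB cows was also lower at 1 than at 16 wkpp in reads of the entire gene. The libraries held 207, 319.5 and 249 entire gene normalised counts at MNEB 1 wkpp, all below those at MNEB 16 wkpp. The log2 difference, 16 minus 1 wkpp, was 1.36 (SE 0.45), with limma adjusted p = 0.261. In this comparison 7 of 7 smooth muscle and pericyte markers (median exonic log2 difference 1.04) and 0 of 5 macrophage markers (median -0.86) had a positive difference. None was called by limma, with 4 and 2 at an unadjusted exonic p under 0.05, and their part in the *RAMP3* difference was not tested. In exonic reads, the MNEB 1 wkpp libraries held 65.9, 75.9 and 66.4 normalised counts. The -4 wkpp libraries held 137, 103.7 and 148 and did not overlap with them, but the log2 difference of -0.87 (SE 0.61) had a limma adjusted p of 0.284. The SNEB 1 wkpp libraries held 257, 88.2 and 92.5 exonic normalised counts, all above those at MNEB 1 wkpp, with a 2.1-fold difference of the means. This log2 difference, SNEB minus MNEB, was 0.90 (SE 0.61, limma adjusted p = 0.293), and in entire genes the groups overlapped, with 0.16 (SE 0.43, limma adjusted p = 0.831). The change from 1 to 16 wkpp, SNEB minus MNEB, was -1.41 (SE 0.79) in exons and -1.79 (SE 0.57) in entire genes, with limma adjusted p of 0.946 and 0.899.

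*RAMP1*, the partner for calcitonin gene-related peptide, had the fewest exonic reads of the 5 genes tested. At SNEB 16 wkpp the libraries held 69.4, 54.1 and 88.8 exonic normalised counts. At MNEB 16 wkpp they held 12.8, 51.6 and 19.04, from 13, 20 and 7 reads. The groups did not overlap, although MNEB library 2 was close to the lowest SNEB library. The exonic log2 difference was 1.74 (SE 0.61, limma adjusted p = 0.0545), and that of the entire gene was 0.82 (SE 0.36, limma adjusted p = 0.181). With single libraries left out, the exonic difference ran from 1.07 to 2.19, with limma adjusted p between 0.051 and 0.39.

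At the other times *RAMP1* was low and its groups overlapped. The libraries held 37, 59.5 and 35.7 exonic normalised counts at -4 wkpp, and 37.5, 66.3 and 26.2 at SNEB 1 wkpp. At MNEB 1 wkpp they held 52.3, 5.42 and 18.4, the last pair from 2 and 5 reads. No *RAMP1* comparison was called.

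**Figure D2:**
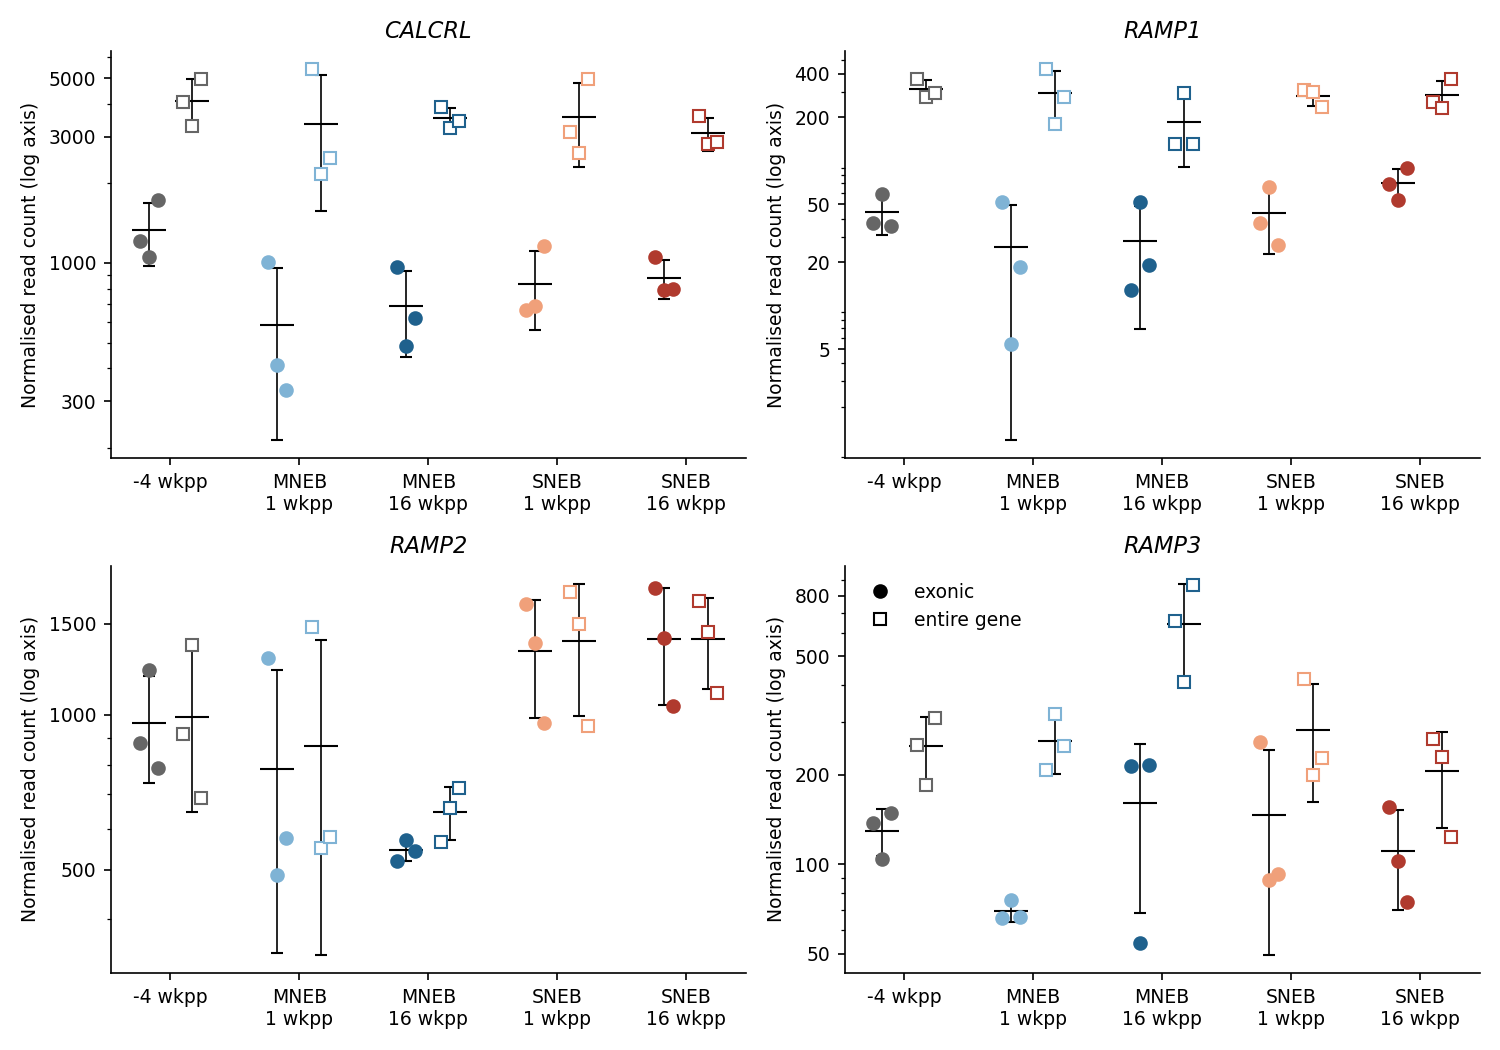
Normalised read counts (log axes) of *CALCRL*, *RAMP1*, *RAMP2* and *RAMP3* in each library of the 5 groups, with filled circles for exonic reads, open squares for reads of the entire gene, and black bars for the mean and SD of 3 libraries. At 16 wkpp the exonic *RAMP2* counts of the 3 SNEB libraries (1041 to 1762) lie above those of the 3 MNEB libraries (521 to 570.4), and the entire gene *RAMP3* counts lie below.

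None of the 4 receptor genes tested was called in any comparison by limma. From -4 wkpp to MNEB 1 wkpp, 1 of the 4 (*CALCRL*) had an unadjusted exonic p under 0.05 in limma, as had 46.3% of all genes. From -4 wkpp to SNEB 1 wkpp, 0 of the 4 members besides *ADM* were called, with 0.223% of 10317 genes called, all 23 lower at 1 wkpp, and 0 of the 4 had an unadjusted p under 0.05 in limma, against 15.5% of all genes in exons. From SNEB 1 to SNEB 16 wkpp, 0 of 4 were called, with 0% of all genes, and 0 of 4 had an unadjusted p under 0.05 in limma, against 8.06% of all genes in exons. At 1 wkpp between diets, 0 of 4 were called where 3.06% of genes were, and 1 (*RAMP2*) had an unadjusted exonic p under 0.05 in limma, as had 38.3% of all genes. At 16 wkpp between diets, 0 of 5 were called where 4.62% of genes were, while 2 (*RAMP1* and *RAMP2*) had an unadjusted p under 0.05 in limma in exons and 3 (*RAMP1*, *RAMP2* and *RAMP3*) in entire genes. Of all genes, 35.3% had one in exons and 27.5% in entire genes. For the difference of the 2 diets' changes from 1 to 16 wkpp, 0 of 4 were called and 0% of genes, while 556 genes had an unadjusted exonic p under 0.05 in limma and none of the 4 did, and 1 (*RAMP3*) had one in entire genes, as had 5.13% of all genes.

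**Figure D3:**
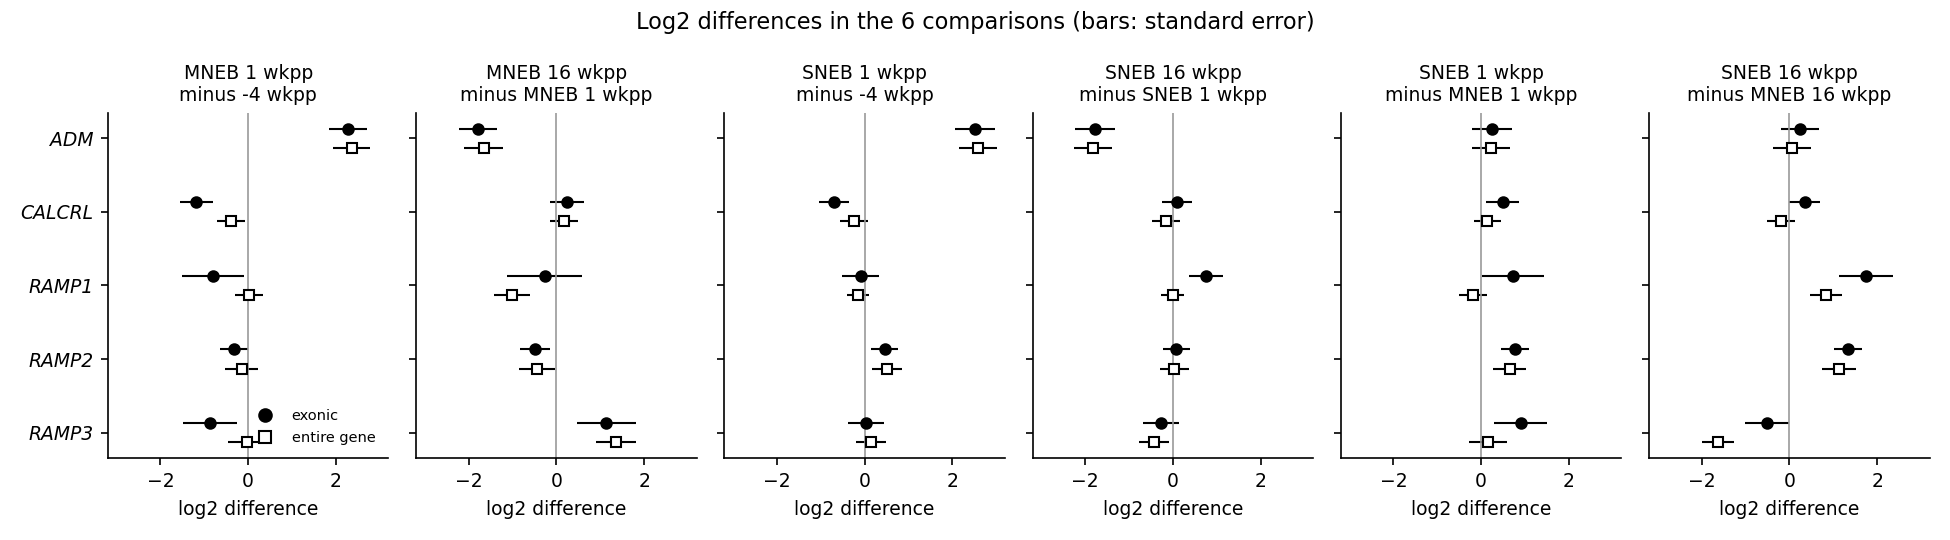
Log2 differences of the 5 members tested in the 6 comparisons, with filled circles for exonic reads, open squares for reads of the entire gene and bars for the standard error. *ADM* differs by 2.27 and 2.51 at 1 wkpp from -4 wkpp in exonic reads, and the *RAMP2* difference between SNEB and MNEB at 16 wkpp is 1.33.

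The exonic and entire gene values parted for the genes with many reads outside exons. Of the reads of the entire gene, exonic reads made up 93.1% to 99% for *ADM* and 89.2% to 97.5% for *RAMP2* over the 15 libraries. The share was 13% to 34.5% for *CALCRL*, 14.5% to 60.9% for *RAMP3* and 3.13% to 24.5% for *RAMP1*. Over all genes it was 38.6% to 59.6%. The lowest *RAMP1* share was 2 of 64 reads (95% Wilson interval 0.861% to 10.7%, counting error only).

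The exonic share of *CALCRL* was 30.6% ± 3.41 at -4 wkpp and 17.3% ± 3.74 at MNEB 1 wkpp (SD, n = 3 each). That of *RAMP3* was 50.8% ± 11.2 and 27.8% ± 4.21. These 2 of 5 members had shares that did not overlap and were lower at MNEB 1 wkpp, as had 7.32% of 10230 genes with a mean of at least 10 normalised counts. The median gene moved by 1.7 percentage points upwards. From -4 wkpp to SNEB 1 wkpp the *CALCRL* share, 21.3% to 27.6% at SNEB 1 wkpp, was also lower without overlap, as held for 1 of 5 members and 2.54% of genes.

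At 1 wkpp the share in SNEB cows was 23.4% ± 3.63 for *CALCRL* and 48.1% ± 12 for *RAMP3* (SD, n = 3 each). Both were above every MNEB library, as held for 8.54% of genes. That of *ADM* was 93.7% ± 0.31 in SNEB and 97.2% ± 2.28 in MNEB cows and was lower in SNEB cows without overlap, as held for 22.9% of genes, and the median gene differed by -1.69 percentage points. At 16 wkpp it was 27.1% ± 0.612 in SNEB and 21.2% ± 4.46 in MNEB cows for *CALCRL*. For *RAMP3* it was 52.3% ± 8.06 and 26% ± 10, and for *RAMP1* it was 23.8% ± 0.877 and 15.7% ± 5.04. These 3 of 5 members did not overlap and were higher in SNEB cows, as held for 2.92% of genes, while the median gene was lower in SNEB cows with a difference of -5.44 percentage points, and *ADM* was lower without overlap, as were 36.1% of genes. The shares were not tested.

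**Figure D4:**
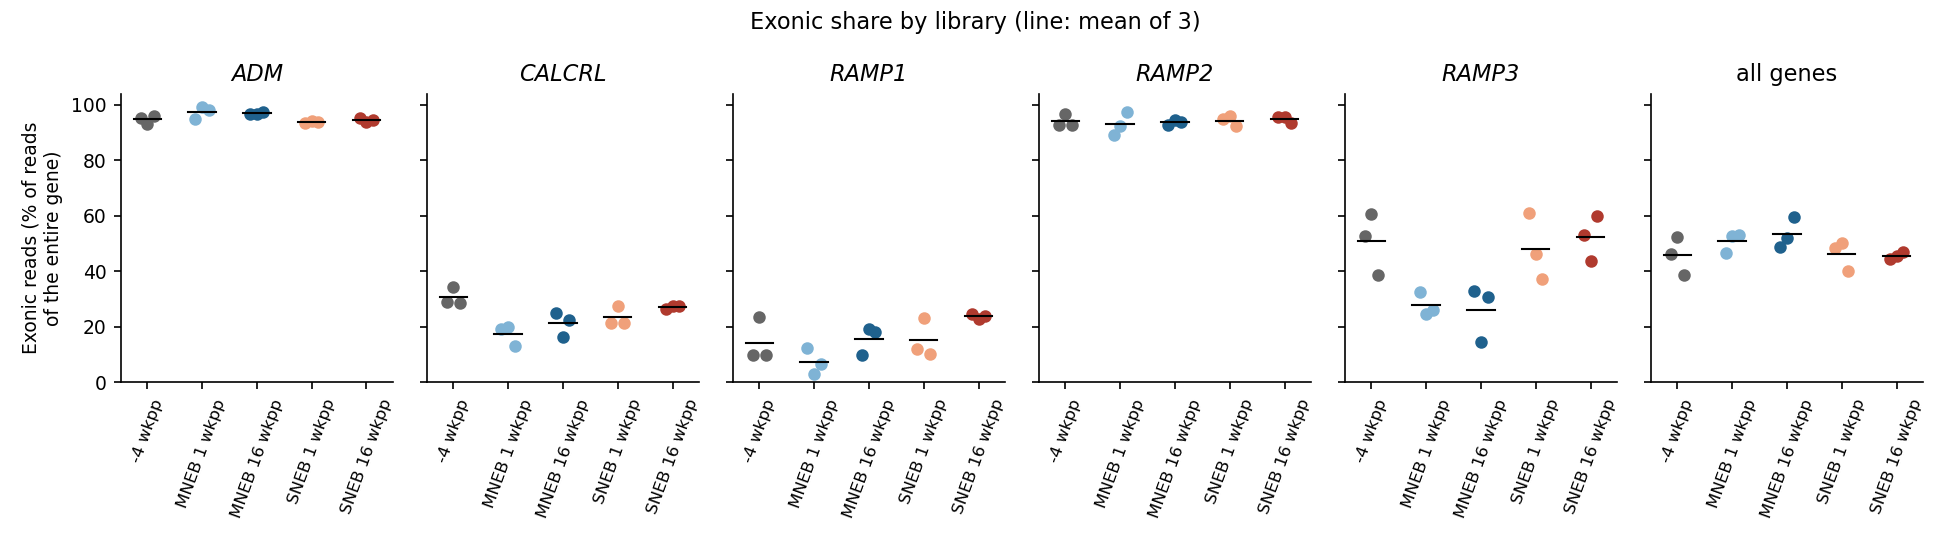
Exonic reads as a percentage of the reads of the entire gene in each library, for 5 members and for the sum over all genes, with a line for the mean of 3 libraries. *ADM* and *RAMP2* stay above 89%, and *CALCRL* and *RAMP3* are lower in the MNEB 1 wkpp libraries than in every -4 wkpp library.

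Genes of related peptides and of the steps around the receptor were taken from lists set before the tests, with earlier results of these data known. Their p-values cannot be taken as independent of that choice. The related peptide and receptor genes *CALCA*, *CALCB*, *CALCR* and *IAPP* had 4, 4, 12 and 8 exonic reads over the 15 libraries and were not tested. Of the 5 genes for peptide maturation, clearance and binding, 2 were called lower at MNEB 1 wkpp than at -4 wkpp, and the median exonic log2 difference of the list was -1.55 against -0.04 over all genes. Of the 14 receptor coupling and second messenger genes tested, 3 were called higher in that comparison, with a median of 0.34. Over all 10317 genes, 10.4% were called there, 692 higher and 376 lower.

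*PAM*, whose enzyme amidates adrenomedullin to its active form, held 6159, 5104 and 4711 exonic normalised counts at -4 wkpp. It held 2548, 1630 and 1398 at MNEB 1 wkpp and 4736, 4822 and 3990.4 at SNEB 1 wkpp. All MNEB 1 wkpp libraries were below all of these others. At 16 wkpp *PAM* held 3272, 1879 and 2235.5 in MNEB cows, below the 5709, 5839 and 5053 in SNEB cows, but it was not called there. Its exonic log2 difference was -1.55 (SE 0.24, limma adjusted p = 0.000162) from -4 wkpp to MNEB 1 wkpp, and 1.32 (SE 0.24, limma adjusted p = 0.0012) between SNEB and MNEB at 1 wkpp. Both comparisons were called. Between diets at 1 wkpp, 4 of 4 adipocyte markers tested were higher in SNEB cows (median exonic log2 difference 1.64, 1 called). Higher there were also 5 of 5 lymphatic endothelium (3.58, 2 called) and 5 of 5 macrophage markers (0.94, 0 called). The number was 5 of 10 for blood vessel endothelium (-0.04, 1 called lower), 3 of 7 for smooth muscle and pericyte and 0 of 3 for skeletal muscle. Of all genes, 3.06% were called. The part of these markers was not tested.

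*ACKR3*, a receptor that takes up chemokines and also binds adrenomedullin, held 2211, 3414 and 1739 exonic normalised counts at -4 wkpp. At MNEB 1 wkpp it held 503.5, 461 and 520.2. It fell with an exonic log2 difference of -2.25 (SE 0.36, limma adjusted p = 0.000246). Without the shallow libraries, which leaves 1 library at MNEB 1 wkpp with its spread taken from the other groups, the exonic log2 differences from -4 wkpp were -1.02 for *PAM* and -2.19 for *ACKR3*. Neither was then called, with limma adjusted p of 0.00991 and 0.024 in exons and 0.0994 and 0.0754 in entire genes. The *PAM* call between diets at 1 wkpp was lost as well, with a difference of 0.78 and limma adjusted p of 0.0535 in exons and 0.26 in entire genes.

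*RAPGEF3*, which encodes a cyclic AMP-activated exchange factor, held 531, 664 and 977 exonic normalised counts at -4 wkpp. It held 4478, 4412 and 4645 at MNEB 1 wkpp, and 1296, 915.5 and 1813 at SNEB 1 wkpp. The MNEB 1 wkpp libraries were above all of these others, by an exonic log2 difference of 2.69 (SE 0.29, limma adjusted p = 1.63e-05) from -4 wkpp. SNEB cows were lower than MNEB cows by -1.80 (SE 0.29) at 1 wkpp and -1.97 (SE 0.28) at 16 wkpp, with limma adjusted p of 0.000599 and 0.000305.

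The adenylyl cyclase gene *ADCY4* rose from -4 wkpp to MNEB 1 wkpp (exonic log2 difference 1.80, SE 0.23, limma adjusted p = 5.2e-05). It was lower in SNEB than in MNEB cows, by -1.65 at 1 wkpp and -1.63 at 16 wkpp. *NOS3*, the endothelial nitric oxide synthase gene, rose from -4 wkpp to MNEB 1 wkpp by 2.05 (SE 0.36, limma adjusted p = 0.000455). *ADCY6* was lower in SNEB cows, by -0.87 (SE 0.16) at 1 wkpp and -1.70 (SE 0.16) at 16 wkpp, with limma adjusted p of 0.00122 and 2.13e-05. These between-diet differences made 3 of 14 genes called lower at each time, with list medians of -0.63 and -0.64 against 0.06 and 0.02 over all genes. Of all genes, 3.06% were called at 1 wkpp, 222 of them lower, and 4.62% at 16 wkpp, 372 of them lower.

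Without the shallow libraries, with 1 library left in each MNEB group, *NOS3* and *RAPGEF3* were still called from -4 wkpp to MNEB 1 wkpp and *ADCY6* between diets at 16 wkpp. The other calls were lost, at 1.27 for *ADCY4* from -4 wkpp to MNEB 1 wkpp on the exonic log2 scale, and between diets at -1.12 and -1.67 for *ADCY4* and -1.83 and -1.71 for *RAPGEF3* at 1 and 16 wkpp and -0.90 for *ADCY6* at 1 wkpp. Over all genes, 169 were then called from -4 wkpp to MNEB 1 wkpp, 0 between diets at 1 wkpp and 16 at 16 wkpp, so a call lost there is not particular to these genes. In the comparisons within MNEB and within SNEB cows, and from -4 wkpp to SNEB 1 wkpp, no gene of these lists was called by limma. An unadjusted exonic p under 0.05 in limma was held by 1 of the 5 peptide handling genes and 4 of the 14 coupling genes from -4 wkpp to SNEB 1 wkpp, against 15.5% of all genes. These were 0 of 5 and 5 of 14 from MNEB 1 to MNEB 16 wkpp, against 15.3%, and 2 of 5 and 5 of 14 from SNEB 1 to SNEB 16 wkpp, against 8.06%. Between diets at 16 wkpp, 0 of the 5 peptide handling genes were called. An unadjusted p under 0.05 in limma was held by 4 of 5 in exons and 4 of 5 in entire genes, against 35.3% and 27.5% of all genes. All 5 had a positive exonic log2 difference, SNEB minus MNEB, with a median of 1.22.

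**Figure D5:**
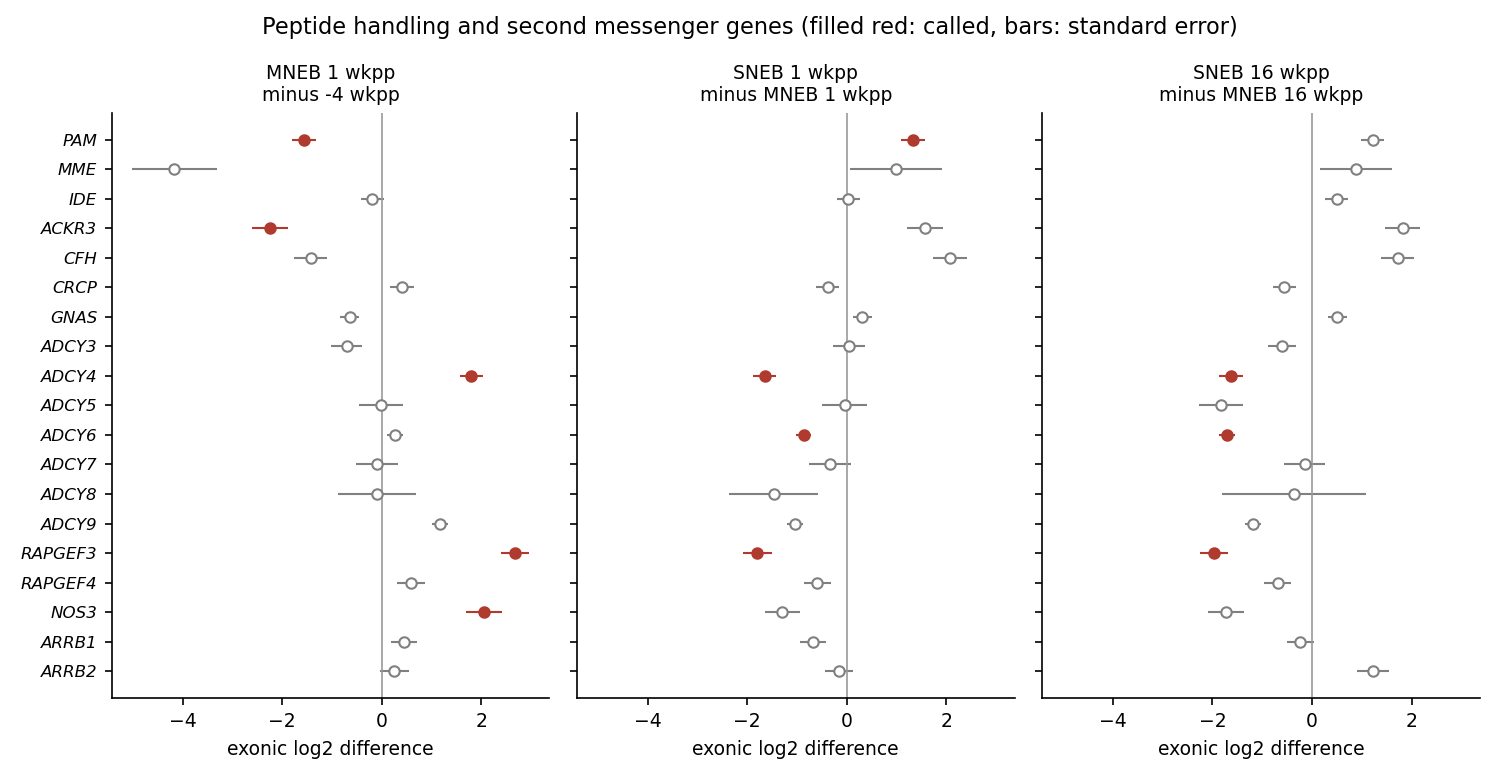
Exonic log2 differences with standard errors for the 5 peptide handling and 14 coupling genes tested, in 3 comparisons, with filled red circles for genes called. *RAPGEF3* and *ADCY4* are higher at MNEB 1 wkpp than at -4 wkpp and lower in SNEB than in MNEB cows at both times, and *PAM* is the reverse at 1 wkpp.

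The genes most like *ADM* in pattern, by Pearson correlation of log2 exonic values over the 15 libraries among 8308 genes with a mean of at least 100 exonic reads, were *MCM7* (r = 0.897), *FAM118B* (0.893), *PSKH1* (0.892), *NOSTRIN* (0.891) and *SGK1* (0.884). *SGK1*, a glucocorticoid-induced kinase gene, had mean exonic normalised counts of 277.5 at -4 wkpp, 964 at MNEB 1 wkpp, 451 at MNEB 16 wkpp, 1188 at SNEB 1 wkpp and 560.3 at SNEB 16 wkpp. For *CALCRL* the closest genes were *TMEM106B* (0.941), *CAV1* (0.925), *ATP6V1H* (0.905), *PGM3* (0.891) and *TM7SF3* (0.886). *CAV1*, the main caveolar coat gene, had a mean of 15985 at -4 wkpp and 7362.5 at MNEB 1 wkpp. The correlation of *ADM* was -0.319 with *RAMP3*, -0.276 with *CALCRL*, -0.187 with *RAMP1* and 0.155 with *RAMP2*. All points share the groups, the library depths and the size factors, so these values are a description.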

How the data were processed

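Subcutaneous adipose RNA from 15 biopsies was sequenced as stranded total RNA depleted of ribosomal RNA. Per the labels, the authors used bcl2fastq 2.15.0, Cutadapt 1.3, TopHat2, the bosTau8 build, HTSeq and DESeq2. The 6 deposited tables, 1 per comparison, give the authors' mean normalised counts over 6 libraries for exons and for entire genes, together with their log2 fold changes, standard errors, test statistics and p-values. These latter columns hold the study's own findings and were not used. No column belonged to another sample (0).

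Each mean is a weighted sum of 6 whole-number counts. The weights were read from genes with single reads, and the counts of all 15 libraries were solved from the 6 means by lattice reduction (Python 3.11.15, sympy 1.14.0). Of 13896 genes, 13875 were recovered in exons and 13865 in entire genes, within a relative tolerance of 1e-14. The others, mostly genes with very high counts, were left out. In a test on counts simulated around recovered genes, with the same weights given, 1000 of 1000 genes were solved exactly in each analysis. This test could not show errors in the weights or in the genes not recovered.

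Counts were scaled by median-of-ratios size factors. Genes with a mean normalised count of at least 10 were tested with limma 3.58.1 (voom offset 0.5) in R 4.3.3, on 1 fit of 5 group means, with Benjamini-Hochberg adjustment over all genes. Named were all members, every called gene of the pathway lists, and the 5 genes most correlated with *ADM* and with *CALCRL* (log2 of the normalised count plus 1). Members and lists were chosen with earlier results of these data known. Precision is limited by 3 libraries per group and by 1922863 to 13460703 exonic reads per library. The recovered libraries could not be tied to cows, so repeated biopsies of a cow were fitted as independent and p-values measure the spread between libraries. The count unit in the tables was a pooled mean, and count models were not run.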

Additional observations from a re-analysis of the deposited data

How the results depend on the processing

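Over 117 recomputed counts of members called, 113 were the same as reported. For -4 wkpp against MNEB 1 wkpp the count was 0 when only the 6 libraries of the comparison were fitted and 0 without the libraries of a size factor below 0.7 (chosen after seeing the data), and 0 to 1 when single libraries were left out. For SNEB 16 wkpp against MNEB 16 wkpp the count was 1 in the exon analysis alone. The alternatives were total-count and upper-quartile scaling, no filter, log2 of the normalised count plus 1 or plus 5 without weights, either analysis alone, an adjusted p below 0.05, the 6 libraries alone and each library left out. Scaling by total count or upper quartile moved the median difference of all genes by at most 0.04 on the log2 scale. Of 585 recomputed differences of single members, 47 had another sign than reported, in 21 of 35 results, and no called difference changed sign. Of 25 group levels, scaling by total count moved 0 by more than 1 SD, and entire gene reads in place of exonic reads moved 16, which were all 5 of *CALCRL*, of *RAMP1* and of *RAMP3* and 1 of *RAMP2*. With 3 libraries per group and 1922863 exonic reads in the shallowest library, differences of *RAMP1* and *RAMP3* rest on few reads. No paired analysis was possible because the recovered libraries carry no replicate number of the labels.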
